A study of Mus musculus with 8 samples.

Results

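The comparison described here is that of antibiotic treatment against none in the distal ileum of wild-type mice. It rests on 4 polyadenylated RNA libraries of whole-tissue ileum sections taken less than 6 cm from the ileocecal valve, each from 1 mouse. Of the series' 8 libraries, these are the 4 from animals with 2 intact copies of Cftr (genotype Cftr N/N, called WT), on the FVB strain. The treated WT mouse, labelled female, drank water with ciprofloxacin (0.3 g/L), a fluoroquinolone that blocks bacterial DNA gyrase, and metronidazole (0.5 g/L), a nitroimidazole active against anaerobes. The 3 untreated WT mice belong to littermate couples 1 (female), 2 (male) and 3 (female). Each WT mouse has a littermate lacking Cftr (KO, Cftrtm1Cam), of which 3 were untreated and 1 received the same drugs. All 8 mice were reared on the low fiber diet C1013 with an osmotic laxative that was stopped more than 4 days before sampling, and all were sampled between 12 and 14 h. The labels state neither the age of the mice nor the duration of the drug course. With 1 treated WT mouse, treatment, litter and normalization set coincide and cannot be told apart.

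Of 41128 gene symbols in the deposited table, 11669 had a value of 1 or more in at least 2 of the 4 WT libraries. From these, 352 were left out because another gene carries the same non-zero value in the treated WT column. A further 29 were left out because they were listed at 0 in the treated WT library and at 1 or more in its KO littermate. The remaining 11288 genes were compared. Levels below are the deposited values, which were taken as RPKM (reads scaled by transcript length and library size), always in the order couple 1, couple 2, couple 3 for untreated mice, and a value after "then" is that of the treated mouse of the same genotype. Differences are on the scale of log2(value + 1), the treated WT value minus the mean of the 3 untreated WT values, with the standard error of limma's fit over all 8 libraries.

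The ileal mucosa is exposed to microbial products and takes part in the host's response to them. Its epithelium secretes C-type lectins of the Reg3 family, Paneth cells release defensins and lysozyme, plasma cells of the lamina propria supply IgA, and lymphoid follicles sample the lumen. The same epithelium absorbs lipid and bile acids and carries enzymes of drug and xenobiotic metabolism, among them the glutathione S-transferases, which couple glutathione to electrophilic compounds.

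Epithelial and distal ileal markers were present in all 4 WT libraries, and so was the muscle marker Myh11 (61.5, 91.2 and 70.2, treated 57.2). The muscle marker Actg2 (68.4, 135.5 and 124.9, treated 1.59) was left out for a shared value. Vil1, a brush border protein, stood at 620.1, 710.3 and 911 in untreated and 679 in treated WT, and Fabp6, the ileal bile acid binding protein, at 5128, 6151 and 6881, then 4955. The pancreatic acinar genes Prss1, Pnlip, Amy2a5 and Cela2a and the colonic gene Car1 were listed at 0 in the treated WT library. Cftr itself stood at 12.4, 9.94 and 10.1 in untreated and 13.8 in treated WT. Xist and the Y-linked Ddx3y were both listed at 0 in the treated WT library, so its labelled sex could not be checked. Couple 2 stood apart: across the tested genes its WT library correlated at 0.939 and 0.951 with the other untreated WT libraries, which correlated at 0.967 with each other. The treated WT library correlated at 0.954, 0.938 and 0.963 with the 3 untreated ones.

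In the treated WT library many genes of detoxification and lipid handling stood above the untreated range and many of antimicrobial defence and of lymphocytes below it, but few single genes passed the test. Gsta3 and Gsta1, both glutathione S-transferases, were higher at a limma adjusted p under 0.05, which is 0.0177% of the tested genes. The inducible nitric oxide synthase Nos2, the ferritin heavy chain Fth1 and the glycolytic enzyme Tpi1 were lower, which is 0.0266% of the tested genes. At an unadjusted p under 0.05, 136 genes (1.20%) were higher and 382 (3.38%) lower. By a description that needs no model, 48 genes (0.425% of those tested) lay at least 2-fold above all 3 untreated WT libraries and 71 (0.629%) at least 2-fold below all 3, counted on value + 1. By any margin, 1171 genes (10.4%) lay above the untreated range and 4443 (39.4%) below it. With 2 untreated WT libraries in place of 3 the range is narrower, and 2065, 1807 and 1795 genes lay above it without couple 1, 2 and 3, while the genes at least 2-fold below numbered 108, 132 and 175. The median difference over all tested genes was -0.14, and differences below stand beside that shift. Of the genes outside the untreated range, 20.9% were above it, and this share became 60.2% once each library was shifted to the same median and 51.3% after quantile normalization of all 8 libraries together. With the median shift, 25.8% of tested genes lay above the untreated range and 17.0% below it.

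**Figure D1:**
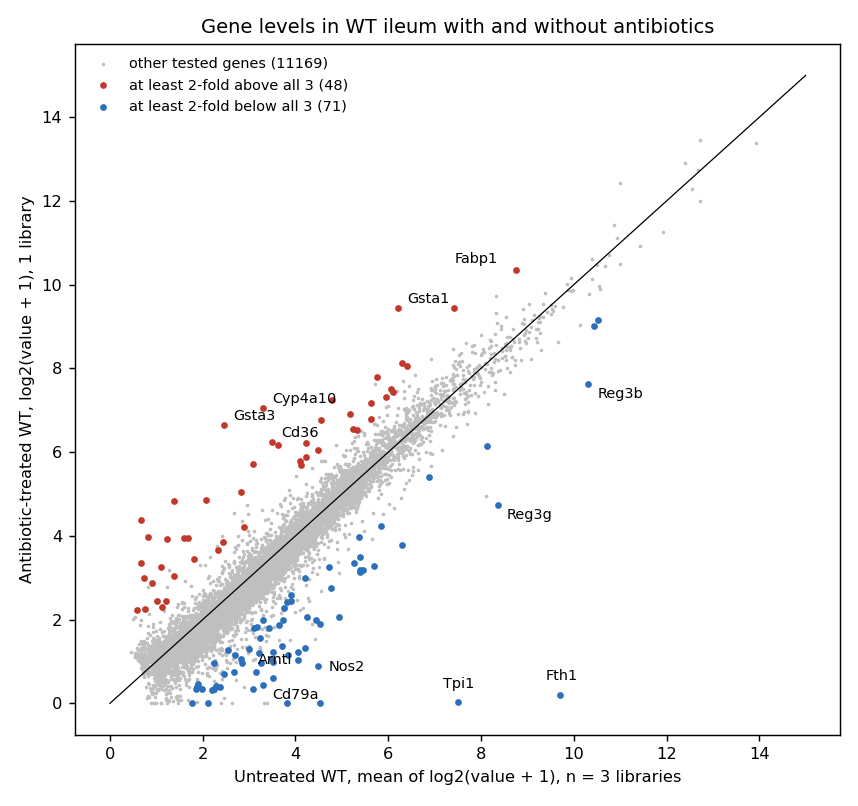
Level of each of the 11288 tested genes in untreated WT ileum (x axis, mean of log2(value + 1) over 3 libraries) and in the antibiotic-treated WT library (y axis, same scale, 1 library), with the line of equal levels. Red points are the 48 genes at least 2-fold above all 3 untreated libraries and blue points the 71 at least 2-fold below. Fth1 and Tpi1 sit near 0 on the y axis, as do other blue points such as Ctnnd1 and Ighv14-3.

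Among genes at or above the median level, leaving aside gene models without a proper name and immunoglobulin and T cell receptor segments, 2 called and 10 further genes are named as highest, and 3 called and 8 further genes as lowest, the further ones ranked by the gap to the nearest untreated library. The further genes did not pass the test, and their values are given as a description. Other genes named below were either the 2 most abundant members of a list or were picked after their values were seen.

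**Figure D2:**
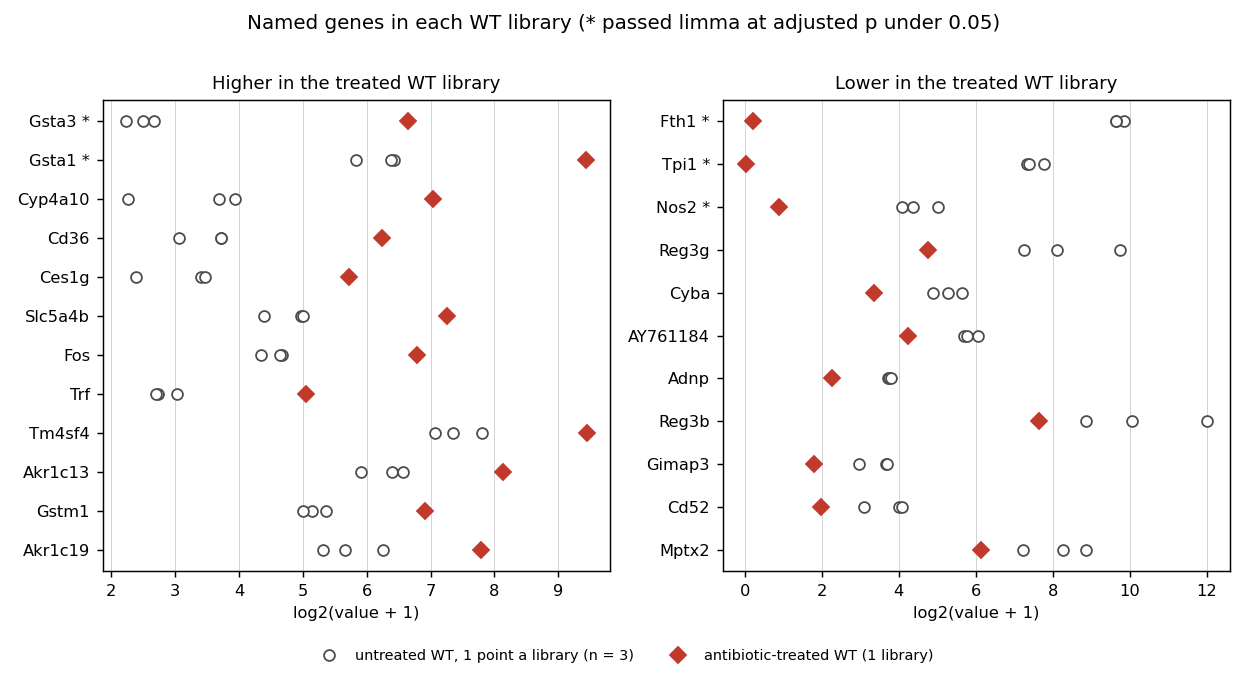
The 23 named genes in each WT library as log2(value + 1): open circles are the 3 untreated mice, red diamonds the treated mouse, and an asterisk marks the 5 genes that passed limma. In each row the diamond lies outside the 3 circles, and the circles of Reg3g and Reg3b spread widely while those of Adnp lie close together.

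Of the named higher genes, the alpha-class glutathione S-transferase Gsta3 had the largest difference. Gsta3 (GRCm38 chromosome 1, 21240589 to 21265661) was at 3.68, 5.37 and 4.65 in untreated WT and at 98.98 in treated WT. The treated library lay far outside the narrow untreated range (4.57 ± 0.849, SD, n = 3), and Gsta3 rose by 4.18 on the log2 scale (SE 0.25, limma adjusted p = 0.00108). Gsta1 (chromosome 9, 78230656 to 78242684) was at 84.8, 55.7 and 82.4 in untreated WT and at 689.9 in treated WT. Its difference was 3.22 (SE 0.35, limma adjusted p = 0.0486), just inside the threshold, and the call was lost when any 1 untreated library, WT or KO, was left out (adjusted p from 0.0797 to 0.12) or both of couple 2 (0.189). Of the 50-base windows of Gsta1 transcripts, 90.5% also occur in transcripts of another gene, most of them in Gm3776, so its reads could have been divided or shared, whereas 0.273% of Gsta3 windows do. Gsta2, which shares 49.8% of its windows, most of them with Gsta1, was at 0.528, 2.69 and 0 in untreated and 14.8 in treated WT (difference 3.15, limma adjusted p = 0.961).

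The stretches of 250 bases before the RefSeq starts of these 3 genes (GRCm38.p6) are shown because the members are high together in the treated library. In Gsta1 (chr9:78230419-78230668, plus strand) and Gsta2 (chr9:78347146-78347395, minus strand) the capitals mark the longest run that both share letter for letter, 29 bases. In Gsta3 (chr1:21240335-21240584, plus strand) they mark a match to the core of the antioxidant response element, searched as TGACNNNGC on both strands.
Gsta1: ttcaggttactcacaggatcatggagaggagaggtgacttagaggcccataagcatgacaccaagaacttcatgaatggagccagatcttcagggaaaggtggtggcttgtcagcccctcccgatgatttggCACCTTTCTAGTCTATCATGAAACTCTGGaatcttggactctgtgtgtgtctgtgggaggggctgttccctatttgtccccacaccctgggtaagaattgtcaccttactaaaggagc
Gsta2: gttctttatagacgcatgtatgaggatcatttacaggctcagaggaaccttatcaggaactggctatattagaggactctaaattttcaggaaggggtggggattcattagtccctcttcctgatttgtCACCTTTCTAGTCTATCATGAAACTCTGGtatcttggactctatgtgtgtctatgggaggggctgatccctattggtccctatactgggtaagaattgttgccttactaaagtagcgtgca
Gsta3: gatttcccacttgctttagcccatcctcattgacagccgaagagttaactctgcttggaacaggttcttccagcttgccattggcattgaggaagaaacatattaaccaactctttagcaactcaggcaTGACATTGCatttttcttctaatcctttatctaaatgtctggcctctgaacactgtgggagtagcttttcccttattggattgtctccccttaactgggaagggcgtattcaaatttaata
Of the 47 tested members of the glutathione and antioxidant list, 40 had such a sequence, and 8 of these held the motif: Gsta3, Gstm5, Mgst1, Gclm, Sod1, Txnrd1, Prdx1 and G6pdx. Among all 27025 genes with a sequence, 11.5% held it. A match describes the letters only.

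In the glutathione and antioxidant list, 2 of 47 tested members passed the test as higher and none of the 47 as lower. At least 2-fold above the untreated range lay 8 (background 0.425%). By any margin, 25 lay above it (background 10.4%) and 8 below (background 39.4%). The list's median difference was 0.43 against -0.14 for all genes, and 29 members lay above with the median shift (background 25.8%). Gclc, the catalytic subunit of the enzyme that limits glutathione synthesis, stood at 48.2, 48.2 and 49.7 in untreated and 144 in treated WT, and its modifier subunit Gclm at 32.6, 19.6 and 42.3, then 50.03. Nqo1, a quinone reductase, was at 16.5, 17.8 and 15.2, then 50.6. The mu-class transferase Gstm1 was at 34.3, 31.1 and 40.2, then 119, the alpha-class Gsta4 at 42.2, 31.4 and 37.9, then 93.2, and the pi-class Gstp2 at 4.23, 4.28 and 3.67, then 11.6. Each of these treated values exceeded all 3 untreated ones, but none of these 6 genes passed the test (limma adjusted p from 0.233 to 0.978). The 2 most abundant members, superoxide dismutase Sod1 (316, 328 and 492, then 597) and Gstp1 (255, 399.5 and 395, then 489.9), were also above the untreated range. The glutathione peroxidases Gpx1 (103, 124 and 141, treated 114) and Gpx2 (112, 127 and 187, treated 166) stayed within the untreated range, and the mitochondrial peroxiredoxin Prdx3 (36.9, 36.01 and 41.4, treated 31.9) lay below it.

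Enzymes of xenobiotic metabolism were mostly above the untreated range. Of 60 tested, 41 were above by any margin (background 10.4%), 5 were below and 6 were at least 2-fold above, with a median difference of 0.54 and no member passing the test. With the median shift 45 were above (background 25.8%). The aldo-keto reductases Akr1c13 (83.2, 59.2 and 93.6, treated 280.3), Akr1c19 (75.5, 39.02 and 49.7, treated 221) and Akr1c12 (52.3, 42.1 and 51.9, treated 109.9) were each at least 2-fold above. The carboxylesterases Ces1g and Ces1f, which hydrolyse ester drugs and lipids, were likewise high: Ces1g stood at 4.25, 9.65 and 10.1 in untreated and 51.9 in treated WT (difference 2.63, SE 0.41, limma adjusted p = 0.233). The most abundant members of the list were the retinaldehyde dehydrogenase Aldh1a1 (282, 244 and 465, treated 852), above the range, and the carboxylesterase Ces2e (326, 341 and 489.7, treated 428), within it. The cytochrome P450 genes Cyp3a11 and Cyp2b10 varied widely among untreated mice. Cyp3a11 stood at 216, 33.8 and 199.7 in untreated and 121 in treated WT, and Cyp2b10 at 64.1, 15.5 and 89.00, then 43.6. The treated library was within the untreated range for both.

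Genes of fatty acid oxidation and PPARA, a nuclear receptor for fatty acids, were higher in part. Of 58 tested members, 29 lay above the untreated range (background 10.4%) and 3 below, 3 were at least 2-fold above, the median difference was 0.33, and no member passed the test. Cyp4a10, a fatty acid omega-hydroxylase and a classical PPARA target, stood at 3.79, 14.4 and 11.9 in untreated and 131 in treated WT. Its difference of 3.75 (SE 0.57) was the second largest among the named higher genes, but it did not pass (limma adjusted p = 0.233). It passed without the WT library of couple 1 (limma adjusted p = 0.0155) and with no gene left out (0.0246). It shares 29.8% of its transcript windows with other genes, most with Cyp4a32, which was at 0.605, 0.878 and 2.30, then 8.61. Most abundant were the fatty acid binding proteins Fabp2 (7892, 3910.4 and 9830.0, treated 11279.7) and Fabp1 (601, 223 and 608, treated 1300.5), both above the range. Carnitine palmitoyltransferase Cpt1a, another PPARA target, stood at 41.2, 50.96 and 43.4, then 40.6, just below it.

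Among lipid uptake and synthesis genes, more lay above the untreated range than below. Of 44 tested members 16 lay above the untreated range (background 10.4%) and 1 below, 4 were at least 2-fold above and the median difference was 0.28, with no member passing. With the median shift 29 were above (background 25.8%). Cd36, a fatty acid translocase, stood at 12.1, 7.38 and 12.1 in untreated and 74.3 in treated WT. Me1, malic enzyme, was at 15.2, 14.2 and 19.1, then 54.6, and the stearoyl-CoA desaturase Scd1 at 45.4, 128 and 99.6, then 266. Apoa1, an apolipoprotein and the second most abundant member after Fabp2, was within the range (4661, 9087 and 6656, treated 6822). Of 20 tested retinoid genes 9 were above the range (background 10.4%) and 4 below (background 39.4%), with a median of 0.28 and none of the 20 passing limma. Retsat, a retinol saturase, stood at 50.1, 62.2 and 89.3, then 182, and Rbp2, the abundant enterocyte retinol binding protein, at 388, 581 and 636, then 743. The named gene Slc5a4b, of the sodium-glucose cotransporter family, was at 20.00, 30.3 and 31.1, then 152 (limma adjusted p = 0.116), and Tm4sf4, a tetraspanin-like membrane protein, at 133, 163 and 222, then 700.4.

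**Figure D3:**
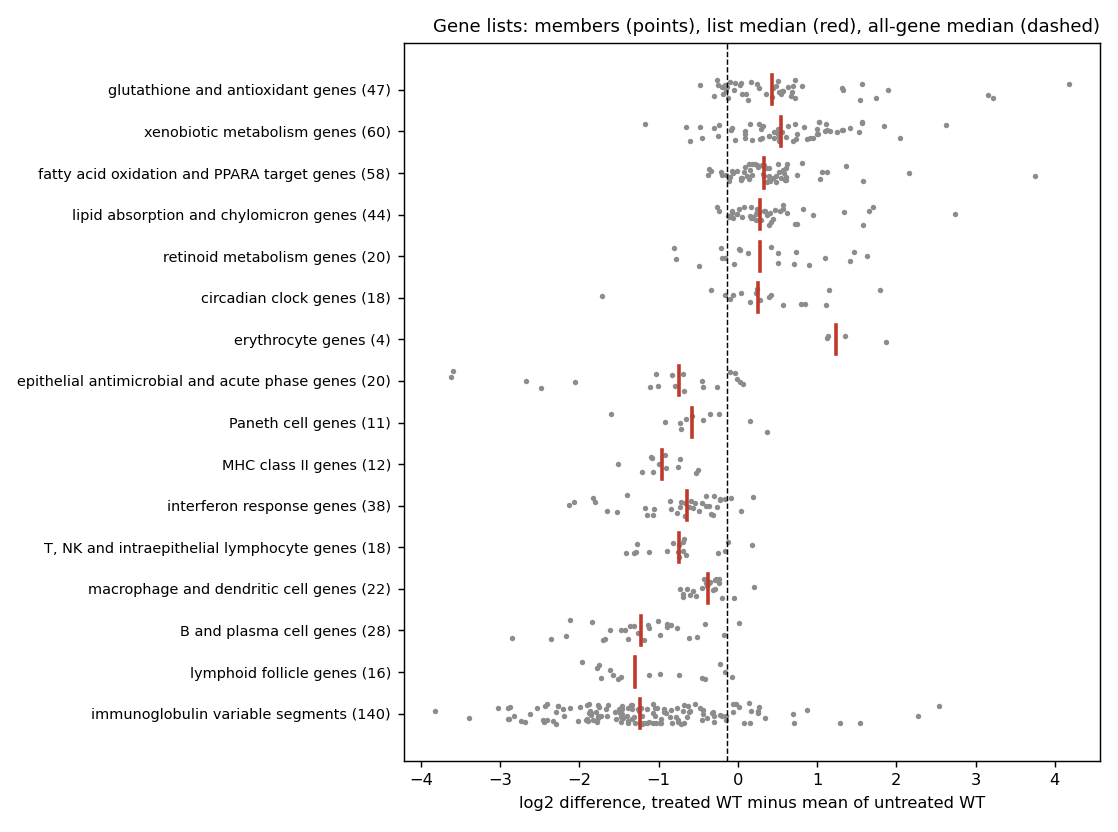
Difference of each tested member (grey points, log2 scale, treated WT minus the mean of 3 untreated WT) in 16 gene groups, with the group's median in red, the number tested in brackets and the median of all genes, -0.14, dashed. The medians of the metabolic groups lie to the right of the dashed line and those of the defence, antigen presentation and lymphocyte groups to its left.

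Transcripts typical of hepatocytes accompanied these metabolic genes in the treated library. Albumin (Alb), the main secreted protein of hepatocytes, was at 0.150, 0.163 and 0.0891 in untreated WT and at 397 in treated WT, and it failed the low-value filter and was not tested. In KO mice Alb was at 110.4, 0.0419 and 10.6 without treatment and at 357 with it, so untreated couple 1 of the KO mice also carried it. In a list of 26 hepatocyte genes assembled after these values were seen, 9 passed the low-value filter, some of them only through the treated library, so no count over those 9 is given. The summed level of the 26 genes was 31.98, 38.82 and 19.2 in untreated WT and 596 in treated WT, of which Alb alone was 397. The protease inhibitor Serpina1c was at 0.451, 0.565 and 0 in untreated WT and 36.1 in treated WT, hemopexin (Hpx) at 0.0209, 0.180 and 0, then 8.79, and the iron carrier transferrin (Trf), a named gene, at 5.61, 7.13 and 5.51, then 32.03. Of the 26, 9 were listed at 0 in the treated WT library, among them the fibrinogen chains Fga, Fgb and Fgg, Ahsg and Apoa2, although Ahsg was at 17.0 and Apoa2 at 37.4 in the KO library of couple 1. The part of these transcripts in the metabolic results was not tested. Against the KO littermate the levels can be set side by side: for the 17 of the 26 genes at 1 or more in both treated libraries, the ratio of WT to KO ran from 0.531 (C3) to 2.33 (Orm1) with a median of 1.15, and it was 1.11 for Alb. The same ratio was 2.51 for Gsta3, 2.28 for Gsta1, 2.68 for Cyp4a10 and 0.345 for Cd36. In the untreated KO libraries, with Alb at 110.4, 0.0419 and 10.6, Gsta3 was at 6.37, 5.65 and 7.52. Whether the 2 genes go together was not tested.

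**Figure D4:**
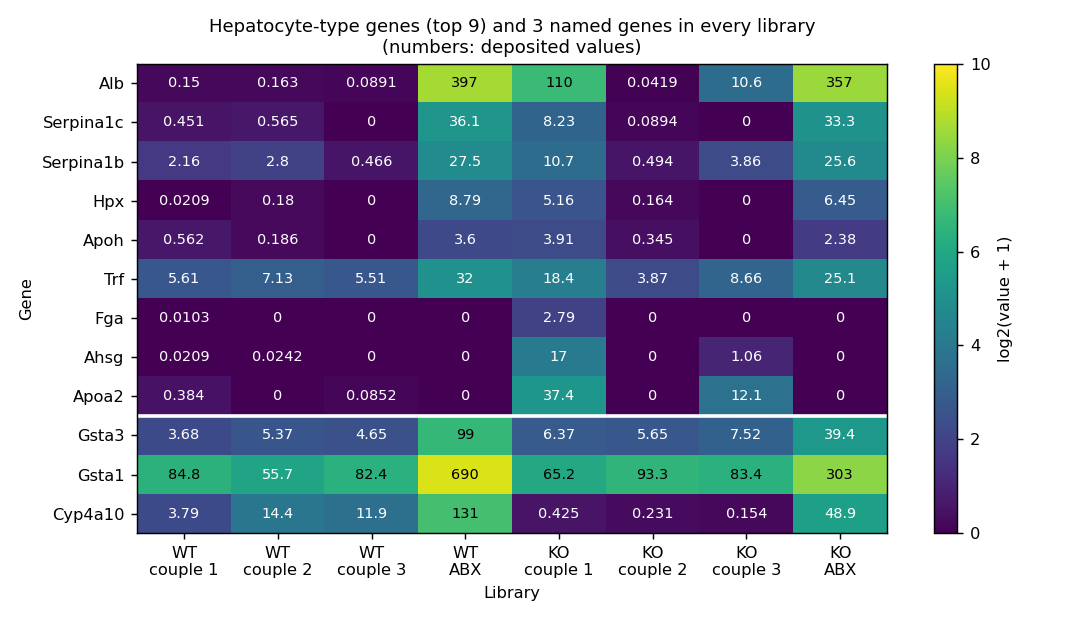
Deposited values (numbers) of 9 hepatocyte-type genes and of Gsta3, Gsta1 and Cyp4a10 in all 8 libraries, coloured by log2(value + 1) from 0 (dark) to 10 (yellow). Alb, Serpina1c and Hpx are high in both antibiotic libraries and in the KO library of couple 1, whereas Fga, Ahsg and Apoa2 are at 0 in both antibiotic libraries.

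Globin genes lay above the untreated WT range in 4 of 4 tested cases (background 10.4%, median difference 1.24), without passing the test (limma adjusted p = 0.978 for each): Hba-a1 at 71.4, 105 and 85.6 in untreated and 190.4 in treated WT and Hbb-bs at 64.1, 50.99 and 70.02, then 158. Adipoq, which marks fat cells, was at 4.50, 10.8 and 3.27 in untreated and 12.3 in treated WT. Smooth muscle genes had a median of -0.35, and 16 of 24 lay below the range (background 39.4%) and 1 above, or 7 below with the median shift (background 17.0%), and Acta2 was at 156, 262 and 225, then 125. The part of blood, fat or muscle content in the gene groups above and below was not tested.

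Among antimicrobial genes, 1 passed the test on the low side. Nos2 (chromosome 11, 78920787 to 78960254), the inducible synthase that makes nitric oxide, stood at 31.2, 16.1 and 19.6 in untreated WT and at 0.862 in treated WT. The treated value was below 1 and lay far under all 3 untreated values, and Nos2 fell by 3.59 on the log2 scale (SE 0.39, limma adjusted p = 0.0486). The limma call was lost on leaving out the WT library of couple 3 (adjusted p = 0.103), any 1 untreated KO library (adjusted p from 0.0821 to 0.108) or both libraries of couple 2 (adjusted p = 0.189). It was also lost with the median shift (limma adjusted p = 0.0881), after joint quantile normalization (0.0605) and without a low-value filter (0.644), while the difference stayed between -3.79 and -3.41 in all of these. In the whole tissue, fewer cells of a type and less RNA per cell cannot be told apart, here and in the groups below.

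The antibacterial lectins Reg3g and Reg3b were also low in the treated WT library but varied widely without treatment. Reg3g was at 274, 152 and 854 in untreated and 25.9 in treated WT, and Reg3b at 1059, 464 and 4148, then 199. The treated value was at least 2-fold below the lowest untreated one for both, and neither passed the test (limma adjusted p = 0.955 and 0.978, SE 0.99 and 1.10). Both lie on chromosome 6 and stood low in the treated library, so the 250 bases before each RefSeq start are shown. Reg3b is at chr6:78370635-78370884 on the plus strand and Reg3g at chr6:78468875-78469124 on the minus strand (GRCm38.p6). Capitals mark the longest run shared letter for letter, 20 bases, which in both genes ends at the last base before the start.
Reg3b: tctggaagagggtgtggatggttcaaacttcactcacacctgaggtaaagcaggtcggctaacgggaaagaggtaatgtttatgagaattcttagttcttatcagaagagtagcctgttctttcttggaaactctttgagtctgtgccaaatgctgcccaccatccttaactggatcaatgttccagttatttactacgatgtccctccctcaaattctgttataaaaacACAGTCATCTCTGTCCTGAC
Reg3g: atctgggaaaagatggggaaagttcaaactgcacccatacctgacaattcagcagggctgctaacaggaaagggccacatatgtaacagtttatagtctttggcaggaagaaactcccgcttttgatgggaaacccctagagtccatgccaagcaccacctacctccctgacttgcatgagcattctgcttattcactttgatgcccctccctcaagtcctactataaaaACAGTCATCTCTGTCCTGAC

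Of 20 tested members of the epithelial antimicrobial and acute phase list, 1 fell, 3 lay at least 2-fold below the untreated range (background 0.629%), 14 lay below it by any margin (background 39.4%) and none of the 20 lay above. The median difference was -0.75, and with the median shift 13 lay below (background 17.0%). Pla2g2a, a secreted phospholipase with bactericidal activity and the second most abundant member, stood at 779, 779 and 874, then 396, and the polymeric immunoglobulin receptor Pigr at 354, 236 and 366, then 179. The acute phase gene Saa1 was at 10.7, 1.14 and 15.05, then 0.313, and the NADPH oxidase Duox2 at 12.4, 11.6 and 7.78, then 6.14. Reg3a (98.9, 91.7 and 158, treated 118) and Retnlb (158, 79.4 and 217, treated 116) stayed within the untreated range. Cyba, a subunit of the phagocyte and epithelial NADPH oxidases and a named gene, was at 37.9, 28.5 and 49.2, then 9.16. Mptx2, a mucosal pentraxin, was at 464, 149.7 and 309.7, then 69.4.

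Of the 22 Paneth cell genes listed, 11 were left out because their treated WT values were shared with other genes, 10 of them defensins, so the defensins are not described. Of the 11 tested, 7 lay below the range (background 39.4%) and none of the 11 above, with a median of -0.58. With the median shift 6 lay below (background 17.0%) and 2 above (background 25.8%), with a median of -0.4. Lyz1, the Paneth cell lysozyme, stood at 1967, 1093 and 1538, then 997, Guca2a, a guanylate cyclase activator, at 1375, 1643 and 1931, then 1389, and the defensin-like AY761184, a named gene, at 65.1, 50.6 and 53.7, then 17.8. None of the 11 passed the test.

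Among genes of antigen presentation, most of the class II list lay below the untreated range. Of 12 tested MHC class II genes, 11 lay below the untreated range (background 39.4%) and none of the 12 above, with a median of -0.96, and 10 lay below with the median shift (background 17.0%). The invariant chain Cd74 was at 272, 477 and 363, then 168, and H2-Aa, a class II alpha chain, at 129, 103 and 124, then 62.4. The transactivator Ciita was at 1.27, 2.38 and 0.757, then 0.432. No member passed (H2-DMa came lowest in the list, at limma adjusted p = 0.591), and H2-Ab1 was left out for a shared value. Class I and immunoproteasome genes stood closer to all genes, with 9 of 20 below (background 39.4%), none of the 20 above and a median of -0.16, which became 0.03 with the median shift: B2m was at 1093, 1246 and 1577, then 873 and H2-D1 at 537, 537 and 819, then 556.

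Interferon response genes stood lower in the treated library, and their untreated levels differed between mice. Of 38 tested, 32 lay below the untreated range (background 39.4%), none of the 38 above, and the median was -0.64, while with the median shift 21 lay below (background 17.0%) and 1 above. Isg15, a ubiquitin-like modifier, stood at 25.9, 4.57 and 12.2 in untreated and 1.86 in treated WT. Oasl2 was at 21.1, 2.58 and 7.31, then 1.07, and Ifit1, which binds viral RNA, at 16.4, 0.950 and 3.46, then 0.499. In each of these 3 genes couple 1 was highest and couple 2 lowest of the untreated mice, and the treated mouse was below couple 2. The 2 most abundant members differed less: Ifi27l2b was at 230.3, 115 and 199, then 96.2, and Ifi35, within the range, at 37.2, 27.4 and 44.7, then 30.4. No member passed the test.

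B cell, plasma cell and follicle genes had the lowest medians of the 48 lists. Of 28 tested B and plasma cell genes, 27 lay below the untreated range (background 39.4%), 4 of them at least 2-fold, none of the 28 above, and the median was -1.22. With the median shift 23 lay below (background 17.0%). Cd79a, a part of the B cell receptor, was at 12.02, 20.5 and 2.40 in untreated and 0.360 in treated WT. Couple 3 was already low, and its level was nearer to the treated mouse than to couples 1 and 2. Of 16 tested follicle genes 13 lay below (background 39.4%) and none of the 16 above, with a median of -1.30. Spib, a transcription factor of B cells and M cells, was at 5.55, 8.46 and 0.766, then 0.218, the B cell chemoattractant Cxcl13 at 12.5, 9.75 and 2.09, then 1.56, and Gp2, which marks M cells, at 2.74, 3.47 and 1.10, then 0.504. Ccl21a, the most abundant member and a chemokine of lymphatic vessels and T cell zones, stayed within the range (51.8, 64.5 and 59.6, treated 55.4), and Anxa5 was just below it (14.1, 15.2 and 12.5, treated 11.7). No member of either list passed the test.

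The secreted immunoglobulins were low too. Igha, the IgA heavy chain that dominates the gut, stood at 1246, 1189 and 1827 in untreated and 519 in treated WT, and Igkc, the kappa light chain, at 1481, 1159.7 and 1873, then 573. For both, the treated value lay at least 2-fold below the lowest untreated one, and neither passed the test (limma adjusted p = 0.978 and 0.978). Of 222 variable segments listed, 140 were tested, 89 of these lay below the untreated range (background 39.4%), 40 at least 2-fold below (background 0.629%) and 5 above. Their median level was 10.5, 6.96 and 8.97 in the untreated libraries and 3.15 in the treated one. In the treated KO mouse it was 13.7, between the untreated KO values of 11.5 and 29.3. Immunoglobulin segments made up 43 of the 71 genes at least 2-fold below the untreated WT range, and since segments of one clone are expressed together and share sequence, they are not independent. Segments could pass the low-value filter through the untreated libraries alone, as Ighv14-3 did (9.56, 14.6 and 16.05, then 0). The counts of segments below the range are therefore a description only.

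T cell, NK cell and intraepithelial lymphocyte genes were low in levels that are small throughout. Of 18 tested, 12 lay below the untreated range (background 39.4%), 2 of them at least 2-fold (background 0.629%), and none of the 18 above, with a median of -0.74. With the median shift 11 lay below (background 17.0%). Of the 2 most abundant, Thy1 stood at 5.54, 6.26 and 7.14, then 5.50, and the chemokine Ccl5 at 5.98, 6.14 and 11.9, then 2.47. The T cell receptor complex genes Cd3g (5.48, 4.98 and 4.09, treated 1.41) and Cd3e (3.25, 5.02 and 2.02, treated 0.598) were below all 3 untreated mice, and so was Cd8a (2.75, 2.13 and 2.25, treated 0.818). The pan-lymphocyte surface protein gene Cd52 was at 15.05, 15.9 and 7.62, then 2.95, and Gimap3, a GTPase of T cells, at 11.7, 11.9 and 6.78, then 2.51. The median for macrophage and dendritic cell genes was -0.37, with 18 of 22 below the range (background 39.4%) and 1 above, or 12 below with the median shift (background 17.0%): the cathepsin Ctss was at 102, 77.8 and 108, then 65.5, and the myeloid lysozyme Lyz2 at 80.1, 62.1 and 48.2, then 37.1. None of these members passed the test (limma adjusted p for Cd3g 0.334).

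Circadian clock genes lay on both sides. Arntl, which encodes the activator BMAL1, stood at 5.62, 5.60 and 10.9 in untreated and 1.46 in treated WT, at least 2-fold below all 3. Of the other clock genes, 3 picked after their values were seen stood above: Dbp at 15.4, 7.34 and 2.40, then 25.9, Nr1d1 at 15.2, 7.03 and 2.73, then 16.4, and Per1 at 6.56, 8.90 and 5.26, then 13.02. Among the untreated mice, couple 3 had the highest Arntl and the lowest Dbp, Nr1d1 and Per1. Of 18 tested clock genes 9 lay above the range (background 10.4%) and 3 below (background 39.4%), the median was 0.26, and none of the 18 passed. With the median shift 13 lay above (background 25.8%) and 1 below. At the highest levels of the list, the kinase gene Csnk1d (28.8, 34.5 and 35.96, treated 33.8) lay within the range and the repressor gene Bhlhe40 (33.7, 32.9 and 28.1, treated 37.2) just above it. All mice were sampled between the same hours of the day, and the part of the exact hour in these levels was not tested.

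The immediate early gene Fos stood at 24.7, 24.04 and 19.4 in untreated and 109 in treated WT. Of 29 tested immediate early genes 14 lay above the range (background 10.4%) and 4 below (background 39.4%), with a median of 0.22. Highest in level were Klf4 (72.4, 146 and 111, treated 115), within the range, and Zfp36 (61.6, 86.6 and 95.3, treated 103), above it. Adnp, a chromatin protein gene, had the tightest untreated values among the named genes (12.2, 12.4 and 12.8) and stood at 3.85 in the treated library (difference -1.47, limma adjusted p = 0.13).

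Fth1 and Tpi1 passed the test with the largest differences, and their values in the treated WT library stand apart from all other 7 libraries. Fth1 (chromosome 19, 9980598 to 9985098) was at 916, 796 and 800.2 in untreated WT and 0.150 in treated WT (difference -9.51, SE 0.32, limma adjusted p = 3.69e-05), against 736 in the treated KO littermate. Tpi1 (chromosome 6, 124810586 to 124814296) was at 161, 165 and 219 in untreated WT and 0.0178 in treated WT (difference -7.47, SE 0.31, limma adjusted p = 0.000101), against 171 in the KO littermate. Ftl1, which encodes the other ferritin chain, was at 509, 735 and 773, then 894 in the same WT libraries. Of 27 tested iron and heme genes Fth1 alone fell, 7 lay above the range (background 10.4%) and 6 below (background 39.4%). Of 31 tested glycolysis genes Tpi1 alone passed the test or lay at least 2-fold below the range. By any margin 7 lay above (background 10.4%) and 10 below (background 39.4%), and the list's median was 0.01. Ldha, a lactate dehydrogenase subunit gene and an abundant member (314, 314 and 527, then 348), stayed within its untreated range. The transferrin receptor Tfrc, which takes up iron, stood at 25.04, 11.8 and 18.8, then 73.3. The same column also holds the shared and zero values for which 421 genes were left out.

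The KO littermates give the nearest comparison, but not an independent one. They share couples and normalization sets with the WT mice, so treatment, litter and normalization set coincide in KO too. Of the 11288 tested genes 8092 (71.7%) had the same sign of difference in WT and KO. Genes at 0 in treated WT and at 1 or more in treated KO had been left out. The genes low in WT were thus chosen in part by their KO value. With those genes kept, 93 rather than 71 lay at least 2-fold below the untreated WT range. Of the 48 genes at least 2-fold above the untreated WT range 43 had the same sign in KO and 13 passed limma there in the same direction, and of the 71 below 49 and 4 did. In KO, 74 genes (0.656%) were higher and 76 (0.673%) lower at an adjusted p under 0.05. Gsta3 was at 6.37, 5.65 and 7.52 in untreated KO and 39.4 in treated KO, and it rose there too (difference 2.43, limma adjusted p = 0.00946). The difference in WT exceeded that in KO by 1.74 (SE 0.36), which did not pass (limma adjusted p = 0.41). Nos2 was at 61.3, 81.97 and 95.4 in untreated KO and 3.43 in treated KO, and it fell there as well (limma adjusted p = 0.00896). Cyp4a10 rose in KO from 0.425, 0.231 and 0.154 to 48.9 (limma adjusted p = 0.0106). Cd36 rose there from 10.99, 4.78 and 14.4 to 216 (limma adjusted p = 0.0122), and Ces1g from 1.45, 1.39 and 1.98 to 65.3 (limma adjusted p = 0.0075).

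The difference between WT and KO was itself tested in 1 term of the same fit, and 2 of 11288 genes passed (0.0177%), Fth1 and Tpi1, with 454 genes (4.02%) at an unadjusted p under 0.05. For other genes the values are given side by side. Gclc was at 59.7, 84.6 and 69.7 in untreated and 72.5 in treated KO, Nqo1 at 20.1, 26.96 and 22.4, then 29.6, and Gsta4 at 16.3, 23.7 and 22.3, then 20.7. In these 3 the treated KO value lay inside the untreated KO range or, for Nqo1, just above it. The glutathione list had a median of -0.14 in KO against 0.43 in WT. Fos was at 55.1, 29.9 and 23.6 in untreated and 10.99 in treated KO, the opposite direction to WT (difference between genotypes 3.76, SE 0.61, limma adjusted p = 0.239). The antimicrobial list had a median of -1.95 in KO and -0.75 in WT, from untreated levels that were 1.83 higher in KO by the list's median on the log2 scale. The B and plasma cell list stood at 0.08 in KO and -1.22 in WT, and the follicle list at 0.48 and -1.30. Cd79a was at 17.6, 4.61 and 39.8 in untreated and 31.2 in treated KO. The difference between genotypes of single members of these lists did not pass the test.

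**Figure D5:**
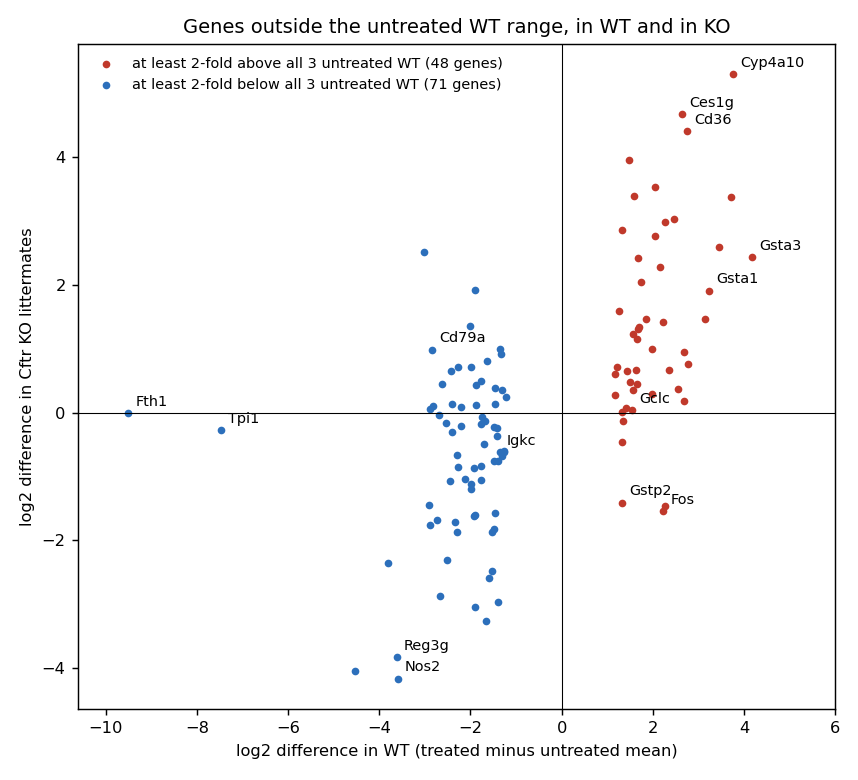
Difference with antibiotics in WT (x axis, log2 scale, 1 treated against 3 untreated libraries) and in KO littermates (y axis, same scale and numbers) for the 48 genes at least 2-fold above (red) and the 71 at least 2-fold below (blue) the untreated WT range. The red genes lie mostly above 0 on the y axis (43 of 48), the blue ones spread to both sides (49 of 71 below 0), and Fth1 and Tpi1 lie near 0 on the y axis.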

How the data were processed

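Distal ileum RNA from 8 mice (4 littermate couples, 1 library each) was sequenced from polyadenylated libraries and processed with CLC Genomics Workbench 7.5 on GRCm38 (annotation release 76), per the labels and the submitters' processing notes. The deposited table does not name its unit: the values were treated as RPKM made by the authors, and their sorted values show 3 separately quantile-normalized sets (couples 1 and 2, couple 3, the antibiotic couple). Read depth is unknown, so no counting interval is given, and strand use and which library ran on which of the HiSeq 2000 and Ion Proton sequencers were not stated in the labels.

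Genes with 1 or more in at least 2 of 4 WT libraries were kept, less those with shared or 0 values in the treated WT column. limma 3.58.1 (R 4.3.3, trend) was fitted to log2(value + 1) with 1 mean for each of 4 groups of genotype and treatment (4 residual degrees of freedom) and Benjamini-Hochberg adjustment at 0.05 over 11288 genes. The single treated mouse is assumed to vary like the untreated ones, and p-values measure the spread between these mice. On simulated data with 11288 genes, 64 of 100 genes changed by 2 on the log2 scale and 93 of 100 changed by 4 were recovered, with 8 false among 165 calls. The simulation drew independent normal noise around 1 mean for each gene, without shifts of litter or normalization set. Only genes at or above the median level were changed. The rates therefore need not hold for the real libraries.

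The members, gene lists and tests were chosen with earlier results of these data known. Named genes are, among genes at or above the median level and without unnamed gene models and antigen receptor segments, the 12 with the largest called differences in each direction, filled by the gap to the nearest untreated library, and for each list its called members or its 2 most abundant ones, some of which are not reported here. Alternatives were the pseudocount, filters, scaling, the fit and leaving out libraries.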

Additional observations from a re-analysis of the deposited data

Results flagged for a closer look

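For 2 genes the difference with antibiotics in WT differed from that in KO by a test of the difference itself. Fth1, the ferritin heavy chain, stood at 0.150 in the treated WT library and at 736 in the treated KO library, and its log2 difference in WT minus that in KO was -9.51 (limma adjusted p = 0.000508). Tpi1, triosephosphate isomerase, stood at 0.0178 and 171, with a difference of -7.21 (limma adjusted p = 0.00179). The same treated WT column lists 376 genes at values shared with other genes and 45 genes at 0 that were at 1 or more in the treated KO library, and whether the Fth1 and Tpi1 values have the same source was not tested.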

How the results depend on the processing

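Gsta3 was called higher under every alternative run. The number of genes called higher was 2 in the reported fit. It was 1 with a pseudocount of 0.1, without a low-value filter, with 1 or more required in all 4 WT libraries, with the median shift, with the 4 WT libraries alone and without couple 2 (added after seeing the data), 4 with genes listed at 0 kept and 52 with no gene left out. Leaving out 1 untreated library gave 1 to 3. The number called lower was 3 as reported, 0 with 1 or more in all 4 libraries (which removes Fth1, Tpi1 and Nos2), 14 with genes listed at 0 kept, 95 with no gene left out and 6 with the 4 WT libraries alone. At least 2-fold above the untreated range were 48 genes, and 107 with no gene left out. Below it were 71, against 179 with a pseudocount of 0.1, 45 with 1 or more in all 4, 196 with no gene left out, 132 without couple 2 and 108 to 175 without 1 untreated WT library. The 2 genes differing between WT and KO became 1 without a low-value filter or without couple 2, 0 with 1 or more in all 4, 7 with genes listed at 0 kept and 72 with no gene left out. Of 381 values of named genes under alternatives none reversed, 20 lost their call (12 for Gsta1 and 8 for Nos2) and 7 gained one. For treated against untreated WT, no paired analysis was possible because the antibiotic couple has no untreated library. With a replicate block for couple, 2 genes again differed between WT and KO. Unknown depth limits what low values can show, and 1 treated mouse leaves treatment, litter and normalization set inseparable.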

Other observations

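Cell cycle and DNA replication genes lay low in the treated WT library: 37 of 51 tested members were below all 3 untreated WT libraries (background 39.4%) and 1 above, with a median difference of -0.39, and 30 were below with each library shifted to the same median (background 17.0%). None of the 51 passed limma. The mitotic cyclin Ccnb1 stood at 7.29, 4.16 and 5.41 in untreated WT and at 3.65 in treated WT, whereas the proliferation marker Mki67, at 16.1, 13.9 and 5.98 and then 10.2, lay within the range. Cholesterol synthesis genes had a median of -0.16 in WT and -1.15 in KO. Sqle, squalene epoxidase, was at 18.3, 20.9 and 16.2 in untreated and 11.5 in treated WT, and in KO it fell from 34.8, 35.5 and 56.6 to 6.33 (limma adjusted p = 0.0155), and the difference between genotypes did not pass.

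Of 41128 gene symbols, 11145 were at 1 or more in the treated WT library. Of these, 109 were under 1 in all 3 untreated WT libraries, 16 of them with a value shared by another gene. Of the other 93, 46 were also at 1 or more in the treated KO library, where 11170 of all symbols were. Some passed the cut by little, as Pex5l did (0.694, 0.559 and 0 in untreated WT, then 1.00). Beside hepatocyte-type genes the 93 included genes typical of neurons, picked after their values were seen. The list of enteric neuron and glia genes stood otherwise, with 7 of 11 tested members below the untreated range (background 39.4%), 2 above and a median of -0.19, and 1 below with the median shift (background 17.0%). Nrgn stood at 0.231, 0.310 and 0 in untreated WT, 6.46 in treated WT and 4.86 in treated KO. Snap25 stood at 0.802, 0.666 and 0 in untreated WT, 3.44 in treated WT and 2.36 in treated KO. The iron hormone gene Hamp2 stood at 0, 0.140 and 0 in untreated WT, 9.06 in treated WT and 6.23 in treated KO. The sets also differ in how many genes are listed at 0, from 20232 in couples 1 and 2 to 27456 in the treated WT library and 29216 in the WT library of couple 3. Conversely, 228 of the 41128 symbols were under 1 in treated WT and at 1 or more in all 3 untreated WT libraries. The genes left out by the rules above are not in this count.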
